A study of Homo sapiens with 22 samples.

Results

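Chemokines are small secreted proteins that attract leukocytes by binding G protein-coupled receptors on their surface, and tumour cells release them too. The genes described here are 10 of the 20668 gene symbols with a value in the RNA-seq files: CXCL8 (interleukin 8), CXCL1, CXCL2, CXCL3, CXCL5, CXCL16, CCL2, CCL5, CCL20 and CX3CL1. They were listed by name, with earlier results of these data known, so counts over them are descriptions and not those of a list chosen blind. The data were 10 RNA-seq samples of MDA-MB-231, a triple-negative breast cancer (TNBC) cell line with a mesenchymal character, in 5 groups of 2 replicates. Before treatment, the cells of all 5 groups were kept for 3 days in medium without phenol red that held serum stripped with charcoal, which removes steroids. They then received vehicle, 100 nM Dex (dexamethasone, a synthetic glucocorticoid) for 2 h or 4 h, or 10 μM CpdA (compound A, a plant-derived modulator of the glucocorticoid receptor, GR) for 2 h or 4 h. Dex and CpdA were thus given at different doses, and differences between them are differences between the treatments as given.

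The labels gave no time for the vehicle samples, so both served as the reference at both times. The names of the deposited data and the study's own supplementary columns mark vehicle replicate 1 as 2 h and vehicle replicate 2 as 4 h, so the spread between these 2 samples and a change with time in culture cannot be told apart. Everything comes from 1 cell line. The study calls the replicates biological and nothing else was stated about separate cultures, so p-values measure the spread between these samples. In bulk RNA, fewer cells making a transcript and less RNA per cell cannot be told apart.

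Inflammatory chemokine genes are classical targets of NF-κB, and glucocorticoids acting through GR are known to repress many of them, partly by interfering with NF-κB and AP-1 and partly through proteins that shorten the life of AU-rich messenger RNAs. The CXC members CXCL8, CXCL1, CXCL2, CXCL3 and CXCL5 attract neutrophils and lie together in a cluster on chromosome 4. Among the CC members, CCL2 attracts monocytes, CCL5 attracts T cells and monocytes, and CCL20 attracts cells that bear CCR6. CXCL16 and CX3CL1 (fractalkine) are made as membrane-anchored proteins that proteases can release.

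In the GENCODE annotation of GRCh37, all 10 were protein-coding genes. CXCL8 lies at chr4:74606236-74609433 and CXCL1 at chr4:74735110-74737025, both on the plus strand. CXCL5 (chr4:74861359-74864394), CXCL3 (chr4:74902306-74904524) and CXCL2 (chr4:74962757-74964913) follow on the minus strand of the same stretch. CCL2 (chr17:32582293-32584227, plus strand), CCL5 (chr17:34198495-34207797, minus strand) and CXCL16 (chr17:4636828-4643223, minus strand) are on chromosome 17. CCL20 is at chr2:228670455-228682280 and CX3CL1 at chr16:57406389-57418956, both on the plus strand. CXCL1, CXCL2 and CXCL3 are close copies of each other: of the 50-base windows of their longest transcripts, 5.33% in CXCL1, 10.1% in CXCL2 and 5.26% in CXCL3 occur exactly in another of the 3 genes. Reads from those stretches could have been split between them by the authors' counting. None of the other 7 shared a window of that length with another member.

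The RefSeq promoter table on GRCh38.p14 held 6 of the 10 genes. CCL2, CCL5, CXCL16 and CX3CL1 were not in it. The 150 bases before each start are shown because 5 of these promoters hold the same κB-like word at a similar distance from the start. Capitals mark GGAATTTCC in the 5 CXC genes, the AP-1 word TGANTCA in CXCL8, and in CCL20 a looser κB word (GGG, any 2 bases, TTTCC), which lies there on the other strand and so reads as GGAAAACCCC. The windows are chr4:73740419-73740568 (plus strand) for CXCL8, chr4:73869243-73869392 (plus) for CXCL1, chr4:74099196-74099345 (minus) for CXCL2, chr4:74038690-74038839 (minus) for CXCL3, chr4:73998678-73998827 (minus) for CXCL5 and chr2:227813692-227813841 (plus) for CCL20.
CXCL8: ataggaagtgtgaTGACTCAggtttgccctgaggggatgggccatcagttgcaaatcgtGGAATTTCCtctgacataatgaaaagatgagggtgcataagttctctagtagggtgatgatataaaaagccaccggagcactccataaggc
CXCL1: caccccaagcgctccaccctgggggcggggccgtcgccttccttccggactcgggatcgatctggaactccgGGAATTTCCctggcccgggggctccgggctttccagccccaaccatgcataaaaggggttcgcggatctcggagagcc
CXCL2: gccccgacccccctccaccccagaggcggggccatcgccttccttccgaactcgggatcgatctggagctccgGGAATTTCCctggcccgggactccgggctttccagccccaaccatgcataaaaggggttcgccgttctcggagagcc
CXCL3: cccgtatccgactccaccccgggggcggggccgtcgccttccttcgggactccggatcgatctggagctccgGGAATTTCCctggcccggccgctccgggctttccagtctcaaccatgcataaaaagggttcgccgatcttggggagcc
CXCL5: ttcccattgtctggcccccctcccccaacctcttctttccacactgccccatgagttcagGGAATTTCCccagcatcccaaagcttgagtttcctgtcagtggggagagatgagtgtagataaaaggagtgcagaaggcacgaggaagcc
CCL20: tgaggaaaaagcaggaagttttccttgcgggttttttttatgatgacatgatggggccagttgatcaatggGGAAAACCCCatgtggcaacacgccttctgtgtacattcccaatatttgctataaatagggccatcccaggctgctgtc

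Over the whole 300-base windows of the table (250 bases before to 50 after the start), searched on both strands, GGAATTTCC occurred in 5 of the 6 chemokine promoters and in 0.461% of all 35116. It began 91 bases before the start in CXCL8, 90 in CXCL5, 78 in CXCL1 and CXCL3, and 77 in CXCL2. The looser word, which overlaps the first in 4 of them, occurred in CXCL1, CXCL2, CXCL3, CXCL5 and CCL20 and in 1.91% of all promoters. The AP-1 word was found in CXCL8 alone of the 6, beginning 137 bases before its start, against 7.71% of all promoters. TATAAA was in CXCL8 and CCL20, against 11.5%. A glucocorticoid response element (GNACA, any 3 bases, TGTNC) was in none of the 6 and in 0.39% of all. The words were chosen with these promoters in view, and a match or its absence describes letters in this window only. In the paper, most places bound by GR after Dex in these cells lay outside promoters, which this search did not cover.

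RNA levels of the 10 genes differed widely in vehicle-treated cells. They are given here in RPKM (reads per kilobase of transcript, scaled to the mapped reads of the sample). This unit allows genes of different length to be compared. CXCL8 was highest at 31.5 ± 18.0 RPKM (SD, n = 2). CX3CL1 (3.58 ± 0.78), CXCL1 (3.53 ± 2.28), CXCL16 (2.46 ± 0.09), CXCL2 (2.17 ± 0.28) and CCL2 (2.05 ± 0.94) followed. The samples of each neighbouring pair in that order from CX3CL1 to CCL2 overlapped or lay within their joint spread, so the order of neighbours was not resolved. Both CX3CL1 samples lay above both samples of CXCL16, CXCL2 and CCL2. CXCL3 stood below these 5 genes from CX3CL1 to CCL2 at 0.681 ± 0.090 RPKM, both its samples under all of theirs. CCL5 was at 0.111 ± 0.032 and CCL20 at 0.0345 ± 0.016 RPKM, and CXCL5 had 0 in both vehicle samples. A gene was tested if it reached 0.5 RPKM in at least 2 of the 10 samples, which left 12713 genes and 7 of the 10 chemokines. CCL5, CCL20 and CXCL5 did not reach it in any sample. CXCL3 reached it in other groups but in neither sample of Dex 2 h, and CCL2 in none of the 4 Dex samples of either time. Counts over the 7 in the Dex comparisons, also between 2 h and 4 h, thus include genes admitted through their own high groups.

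**Figure D1:**
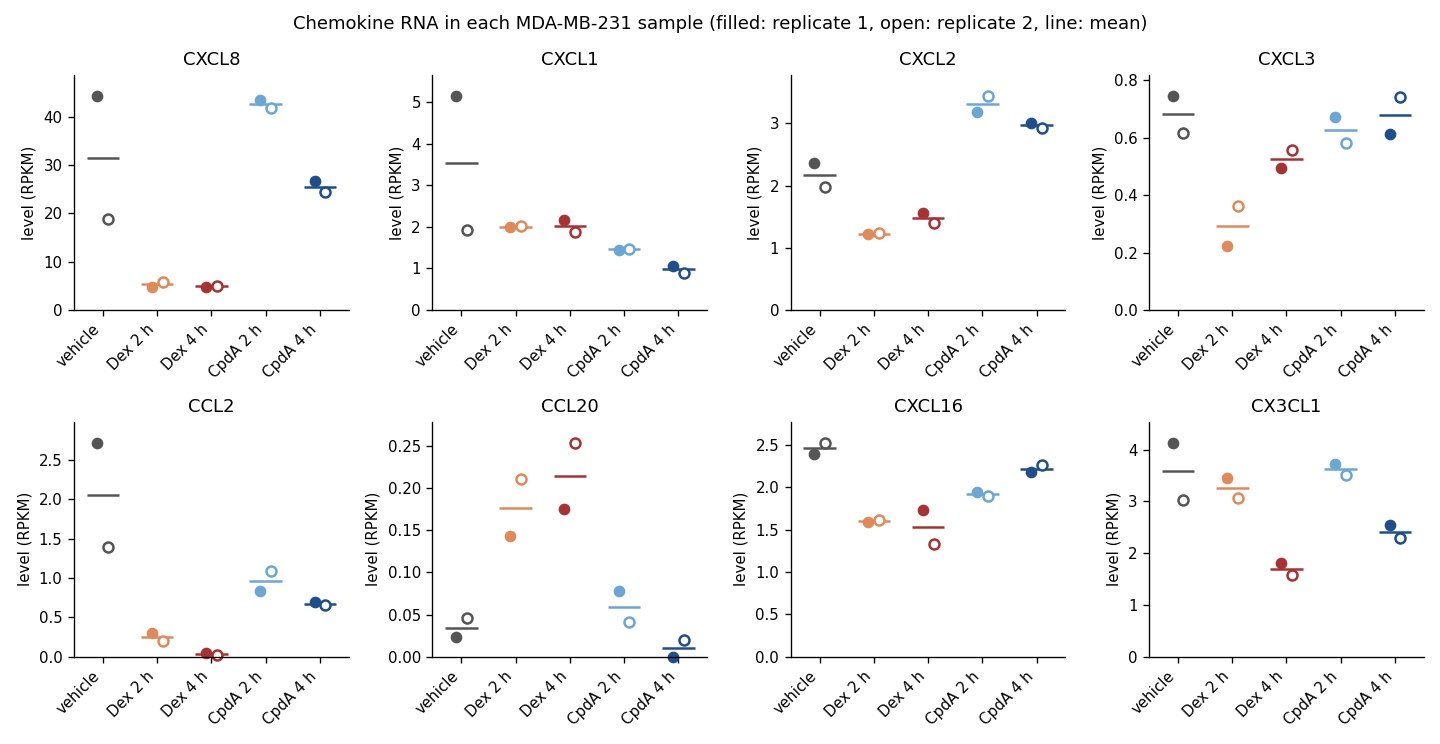
Level in RPKM (vertical axes, each from 0) of 8 chemokine genes in the 10 samples, by group, with filled points for replicate 1, open points for replicate 2 and a line at the mean of the 2. The vehicle points of CXCL8, CXCL1 and CCL2 lie far apart (44.2 and 18.7, 5.14 and 1.92, 2.72 and 1.39 RPKM), while the points of the treated groups lie close together.

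The pair of vehicle samples differed more for 3 of these genes than for most of the transcriptome. Vehicle replicate 1 was 2.36-fold above replicate 2 for CXCL8, 2.67-fold for CXCL1 and 1.95-fold for CCL2. Over the 12194 genes above 0.5 RPKM in both, 90% of the ratios lay between 0.839 and 1.22. CX3CL1 (1.36) was also outside that range, and CXCL2 (1.20), CXCL3 (1.21) and CXCL16 (0.948) were inside it. Each comparison of a tested member with vehicle below is therefore also given with each vehicle sample alone where that changes the call. In such a fit the single vehicle sample is assumed to vary like the other groups. The data's names mark replicate 1 as 2 h and replicate 2 as 4 h. On that marking, the fits matched in time are those against replicate 1 alone at 2 h and against replicate 2 alone at 4 h. A difference between the fits can thus hold time as well as spread between samples. For genes other than these chemokines no such fit is given, so it is not shown whether their calls hold against either vehicle sample.

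The libraries were of similar depth. Relative depth, read from the RPKM step that 1 read is worth, ran from 1.0 in vehicle replicate 1 and 1.013 in vehicle replicate 2, the shallowest pair, up to 1.212 in a Dex 2 h sample. Total reads were not given, so no depth in reads is known. The defining markers of the line were present: VIM, CD44, EGFR, KRT8 and KRT18 ranged from 26.7 to 1464 RPKM, while ESR1 and PGR stayed under 0.5 RPKM in every sample. ERBB2, by definition not amplified in TNBC, was at 15.9 to 21.6 RPKM. Of 8 leukocyte markers, 7 were in the files and 5 of these stayed under 0.5 RPKM in every sample. The pan-leukocyte gene PTPRC did not exceed 0.063 RPKM. CD68 (31.4 to 34.9 RPKM) and CD14 (2.17 to 2.89 RPKM) were present at similar levels in all groups, and neither was called in any comparison with vehicle. The 3 endothelial markers (PECAM1, VWF, CDH5) summed to at most 0.342 RPKM. The known GR targets FKBP5, PER1, TSC22D3 and PDK4 rose in all 4 Dex samples (PDK4 from 0.149 ± 0.013 to 69.9 ± 0.72 RPKM at 2 h, SD, n = 2). NR3C1, the gene of GR itself, fell with Dex by 0.56 at 2 h and 0.97 at 4 h on the log2 scale (limma, adjusted p = 0.0027 and 3.7e-05). It was not called with CpdA at either time. With CpdA, PER1, TSC22D3 and PDK4 rose at 2 h (1.22, 0.44 and 0.55 on the log2 scale, limma, adjusted p from 0.0033 to 0.023). All 4 known targets rose at 4 h of CpdA (0.27 to 0.82). PDK4 with CpdA had only 0.231 and 0.303 RPKM at 2 h and 0.333 and 0.268 RPKM at 4 h. It was under 0.5 RPKM in every vehicle and CpdA sample and passed the filter through its Dex samples alone. Its rises with CpdA are thus differences at a very low level.

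Most tested chemokine genes were lower after Dex. At 2 h, 5 of the 7 tested members fell and 0 rose (limma, adjusted p under 0.05 over all genes tested; also 0 at an unadjusted p under 0.05), where 5.82% of all tested genes fell and 4.49% rose. At 4 h, 5 of 7 fell and 0 rose (also 0 at an unadjusted p), against 18.2% and 9.26% of all genes. The filter bears on these counts. CCL2 at both times and CXCL3 at 2 h were under 0.5 RPKM in both Dex samples and passed through other groups. CCL20, higher in every Dex than in every vehicle sample, was under the filter and is not counted. The median log2 fold change of the 7 was −0.77 at 2 h and −0.66 at 4 h, beside −0.02 and −0.05 over all genes tested. CpdA gave a mixed picture. At 2 h only CXCL2 passed, upward (1.89% of all genes rose), and 0 fell (4.29% of all), with 3 lower at an unadjusted p under 0.05. At 4 h CXCL2 was higher (6.76% of all rose) and CCL2, CXCL1 and CX3CL1 were lower (13.8% of all fell). The medians with CpdA were −0.10 and −0.18, beside −0.02 and −0.04 over all genes. The balance of all called genes moved with scaling: at Dex 4 h 33.8% of them were higher, 44.8% after quantile normalization and 49.9% after median scaling. For CpdA it was 30.5%, 39.5% and 44.6% at 2 h, and 33.0%, 46.8% and 55.8% at 4 h. The Dex and CpdA comparisons share the vehicle samples, so they are not independent of each other. With 2 samples a group, an exact permutation test of 1 gene cannot give a two-sided p under 0.333, so the tests rest on limma's spread shared over the 5 groups.

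**Figure D2:**
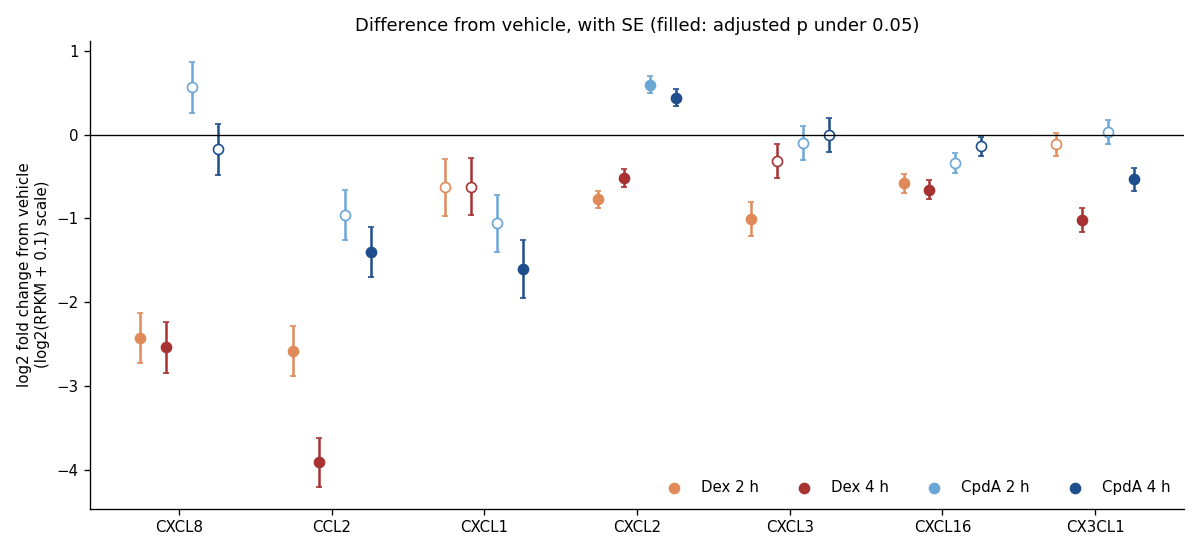
Log2 fold change from vehicle of the 7 tested chemokine genes after Dex or CpdA (vertical axis, on the log2(RPKM + 0.1) scale, bars show the SE from limma, filled points have an adjusted p under 0.05). CXCL8 and CCL2 fell most with Dex (−2.43 and −2.58 at 2 h, −2.54 and −3.91 at 4 h), and CXCL2 was lower with Dex and higher with CpdA.

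CXCL8, the main neutrophil attractant and the most abundant of these transcripts, had 44.2 and 18.7 RPKM in vehicle replicates 1 and 2. After Dex it had 4.81 and 5.77 RPKM at 2 h and 4.85 and 4.90 RPKM at 4 h. Every Dex sample was thus below both vehicle samples, and the 2 times were alike. The log2 fold change was −2.43 ± 0.30 (SE) at 2 h (limma, adjusted p = 0.00071), a 5.38-fold fall on the log2(RPKM + 0.1) scale, and −2.54 ± 0.30 at 4 h (limma, adjusted p = 0.00025). Against vehicle replicate 2 alone, the lower of the pair, it was −1.81 at 2 h and −1.92 at 4 h, and against replicate 1 alone −3.05 and −3.16, with the call kept in all 4 fits.

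After CpdA, CXCL8 had 43.5 and 41.7 RPKM at 2 h and 26.6 and 24.3 RPKM at 4 h. At 2 h both samples were just under the higher vehicle sample, and at 4 h both lay between the vehicle samples. Neither value passed, 0.56 ± 0.30 at 2 h or −0.18 ± 0.30 at 4 h on the log2 scale (limma, adjusted p = 0.34 and 0.73). Which vehicle sample served as reference set the outcome. Against vehicle replicate 2 alone CXCL8 was 1.18 higher at 2 h (limma, adjusted p = 0.00064) and 0.44 higher at 4 h (adjusted p = 0.028). Against vehicle replicate 1 alone it was −0.05 at 2 h (limma, adjusted p = 0.93) and −0.80 at 4 h (adjusted p = 0.0021), so the sign at 4 h turned with the vehicle sample.

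CXCL1, a neutrophil attractant that acts through CXCR2, had 5.14 and 1.92 RPKM with vehicle. Dex gave 1.99 and 2.01 RPKM at 2 h and 2.17 and 1.87 RPKM at 4 h, and CpdA gave 1.45 and 1.47 RPKM at 2 h and 1.06 and 0.887 RPKM at 4 h. All 4 Dex samples were close to vehicle replicate 2, whereas all 4 CpdA samples were below both vehicle samples. With Dex neither time passed, with values of −0.63 ± 0.34 (2 h) and −0.62 ± 0.34 (4 h) on the log2 scale (limma, adjusted p = 0.34 and 0.22). They were −1.32 and −1.31 against vehicle replicate 1 alone (limma, adjusted p = 0.00056 and 0.00029), and 0.05 and 0.06 against replicate 2 alone (adjusted p = 0.86 and 0.80). With CpdA CXCL1 was −1.06 ± 0.34 at 2 h (limma, adjusted p = 0.11) and fell by 1.60 ± 0.34 at 4 h (adjusted p = 0.011), a 3.04-fold fall. The fall at 4 h was −0.92 and −2.29 against vehicle replicate 2 and vehicle replicate 1 alone and passed in both fits, but not without CpdA 4 h replicate 2 (−1.49, limma, adjusted p = 0.075), while the value at 2 h passed only against replicate 1 alone (−1.75, limma, adjusted p = 0.00055).

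CXCL2, a close relative of CXCL1, had 2.37 and 1.97 RPKM with vehicle. It had 1.21 and 1.23 RPKM after 2 h and 1.56 and 1.39 RPKM after 4 h of Dex. After CpdA it had 3.19 and 3.44 RPKM at 2 h and 3.00 and 2.93 RPKM at 4 h. The 3 treatments did not overlap: every Dex sample was below both vehicle samples and every CpdA sample above them. CXCL2 fell with Dex by 0.77 ± 0.10 at 2 h (limma, adjusted p = 0.0012) and by 0.52 ± 0.10 at 4 h (adjusted p = 0.0053) on the log2 scale. It rose with CpdA by 0.59 ± 0.10 at 2 h (limma, adjusted p = 0.011) and by 0.44 ± 0.10 at 4 h (adjusted p = 0.017). The rises kept their sign but missed the threshold against vehicle replicate 1 alone (0.47 and 0.31, limma, adjusted p = 0.064 and 0.080) and without any one of the CpdA samples of that time. With only the compared groups in the fit, the rise at 2 h (adjusted p = 0.051) and the Dex fall at 4 h also missed it (adjusted p = 0.062, limma).

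CXCL3, the least abundant of the tested neutrophil attractants, had 0.745 and 0.618 RPKM with vehicle, which were 44 and 37 reads as recovered from the RPKM steps. After Dex it had 0.223 and 0.363 RPKM at 2 h (15 and 26 reads) and 0.496 and 0.556 RPKM at 4 h (31 and 36 reads). The CpdA samples, from 0.583 to 0.742 RPKM, overlapped with vehicle. CXCL3 fell by 1.01 ± 0.20 at Dex 2 h on the log2 scale (limma, adjusted p = 0.012). At Dex 4 h it did not pass, at −0.32 ± 0.20 (limma, adjusted p = 0.30). The fall at 2 h did not pass against vehicle replicate 2 alone (−0.89, limma, adjusted p = 0.063), without Dex 2 h replicate 1 (−0.75, adjusted p = 0.092) or with only the compared groups (−1.01, adjusted p = 0.073). CXCL5, a further neutrophil attractant whose promoter carries the same κB word, had 1 read in Dex 2 h replicate 1, 1 read in CpdA 2 h replicate 1 and 0 in the other 8 samples, so no fold was given.

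CCL2, the monocyte chemoattractant MCP-1, showed the largest fall of the 10 genes. It had 2.72 and 1.39 RPKM with vehicle (104 and 54 reads), 0.299 and 0.194 RPKM after 2 h of Dex (13 and 9 reads) and 0.0494 and 0.0238 RPKM after 4 h (2 reads and 1 read). Dex thus took it from a level like that of CXCL2 to one like that of the barely detected CCL20. There was no overlap between vehicle, 2 h and 4 h. The log2 fold change was −2.58 ± 0.30 at 2 h (limma, adjusted p = 0.00042) and −3.91 ± 0.30 at 4 h (adjusted p = 1.3e-05), and it passed against either vehicle sample alone. At these read numbers the pseudocount sets the size: at 4 h it was −1.52 with a pseudocount of 1 and −5.45 with 0.01. The reads themselves, 3 with Dex at 4 h against 158 with vehicle and scaled by relative depth, gave a level 56.3-fold lower (exact 95% interval 18.9 to 276, counting error only). At 2 h, 22 reads against 158 gave 8.38-fold lower (5.34 to 13.8).

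With CpdA, CCL2 had 0.838 and 1.08 RPKM at 2 h (38 and 47 reads) and 0.700 and 0.652 RPKM at 4 h (31 and 29 reads). All 4 samples lay below both vehicle samples and above every Dex sample. The fall at 4 h passed (−1.40 ± 0.30, limma, adjusted p = 0.010), whereas the value at 2 h did not (−0.96 ± 0.30, adjusted p = 0.099). Against vehicle replicate 2 alone the value at 4 h missed the threshold (−0.94, limma, adjusted p = 0.055), and against replicate 1 alone the value at 2 h passed it (−1.42, adjusted p = 0.031). Without CpdA 4 h replicate 1 or 2 the adjusted p at 4 h was 0.058 or 0.068 (limma).

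**Figure D3:**
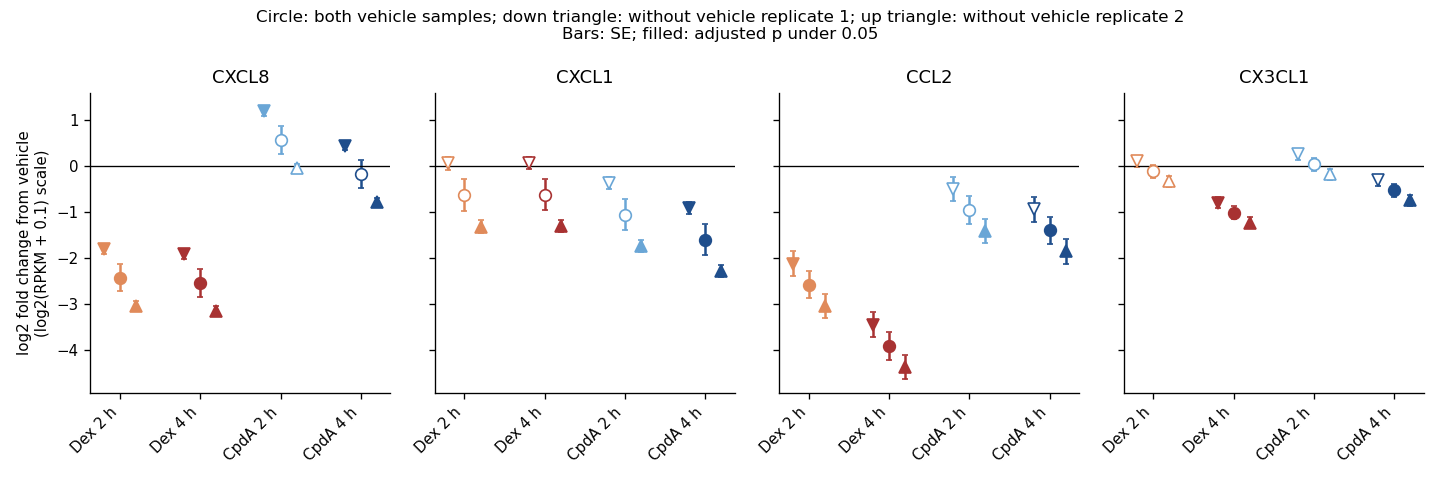
Log2 fold change from vehicle (vertical axis, log2(RPKM + 0.1) scale, bars show the SE from limma, filled symbols have an adjusted p under 0.05) of CXCL8, CXCL1, CCL2 and CX3CL1, with both vehicle samples (circles), without vehicle replicate 1 (down triangles) and without vehicle replicate 2 (up triangles). The Dex values of CXCL8 and CCL2 stay below −1.8 in all 3 fits, while CXCL8 with CpdA at 4 h runs from 0.44 to −0.80 and CXCL1 with Dex from about 0 to −1.32.

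CCL20, the ligand of CCR6, went the other way from CCL2 at very low levels. It had 0.0232 and 0.0457 RPKM with vehicle (1 read and 2 reads), 0.143 and 0.210 RPKM after Dex 2 h (7 and 11 reads) and 0.175 and 0.254 RPKM after Dex 4 h (8 and 12 reads). With CpdA it had 4 and 2 reads at 2 h and 0 reads and 1 read at 4 h. All 4 Dex samples were above every vehicle and CpdA sample. The ratio of reads to vehicle, scaled by relative depth, was 5.15 (exact 95% interval 1.5 to 27.3, counting error only) at 2 h and 6.23 (1.85 to 32.8) at 4 h. The gene was under the filter. In the fit of all 20668 symbols its log2 fold change was 1.04 ± 0.20 at 2 h (limma, adjusted p = 0.032) and 1.22 ± 0.20 at 4 h (adjusted p = 0.0078).

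CCL5, which attracts T cells and monocytes, had 9 and 6 reads with vehicle, 9 and 3 after Dex 2 h, 6 and 8 after Dex 4 h, 7 and 14 after CpdA 2 h and 4 and 8 after CpdA 4 h. All groups overlapped with vehicle. None of its comparisons with vehicle passed in the fit without a filter, where the log2 fold changes ran from −0.28 to 0.14 with an SE of 0.29. At this depth the read ratio of Dex 4 h to vehicle, 0.873, had an exact 95% interval of 0.390 to 1.94 (counting error only). A fall of 2-fold lies within this interval and a rise of 2-fold just outside it.

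**Figure D4:**
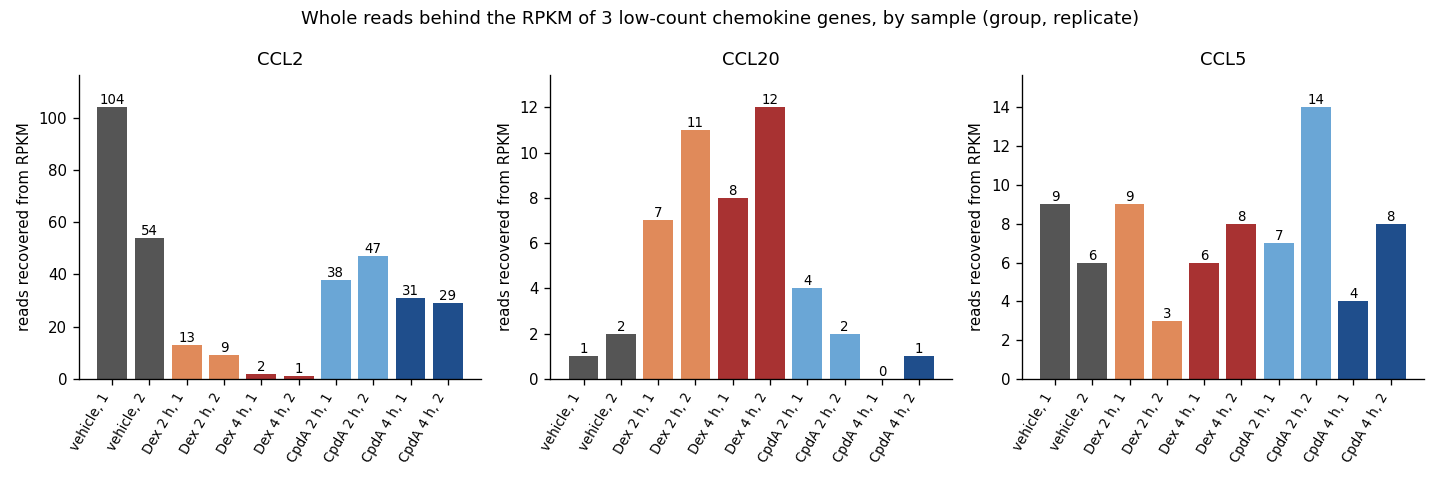
Whole reads recovered from the RPKM values of CCL2, CCL20 and CCL5 in the 10 samples (vertical axes from 0, bars labelled with the number, colour by group). CCL2 runs from 104 and 54 reads with vehicle to 2 and 1 at Dex 4 h, CCL20 is above 6 reads in the 4 Dex samples alone, and CCL5 has 3 to 14 reads with no separation between groups.

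CXCL16, the membrane-anchored ligand of CXCR6, had 2.39 and 2.52 RPKM with vehicle, vehicle samples that were close together. Dex gave 1.59 and 1.62 RPKM at 2 h and 1.73 and 1.33 RPKM at 4 h, and CpdA gave 1.95 and 1.89 RPKM at 2 h and 2.18 and 2.26 RPKM at 4 h. All 8 treated samples were below both vehicle samples, the Dex samples lowest. CXCL16 fell with Dex by 0.58 ± 0.11 at 2 h (limma, adjusted p = 0.010) and 0.66 ± 0.11 at 4 h (adjusted p = 0.0025) on the log2 scale. With CpdA it was at −0.34 ± 0.11 (2 h) and −0.14 ± 0.11 (4 h) (limma, adjusted p = 0.13 and 0.44), and the 2 h value passed without either Dex 4 h sample (adjusted p = 0.024 and 0.023). The fall at Dex 2 h did not pass without vehicle replicate 2 or without either Dex 2 h sample (limma, adjusted p = 0.069, 0.075 and 0.060).

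CX3CL1, the ligand of CX3CR1 that can also act as an adhesion molecule, had 4.13 and 3.03 RPKM with vehicle. It had 3.46 and 3.06 RPKM at Dex 2 h and 1.81 and 1.58 RPKM at Dex 4 h, and 3.72 and 3.51 RPKM at CpdA 2 h and 2.54 and 2.29 RPKM at CpdA 4 h. The samples of 2 h overlapped with vehicle for both ligands, and those of 4 h were below both vehicle samples. CX3CL1 fell by 1.02 ± 0.14 at Dex 4 h on the log2 scale (limma, adjusted p = 0.00058) and by 0.53 ± 0.14 at CpdA 4 h (adjusted p = 0.026). At 2 h its log2 fold changes were −0.12 ± 0.14 with Dex and 0.03 ± 0.14 with CpdA (limma, adjusted p = 0.72 and 0.93). The call at Dex 4 h held against either vehicle sample alone. That at CpdA 4 h did not hold against vehicle replicate 2 alone (−0.32, limma, adjusted p = 0.13) or without either CpdA 4 h sample (adjusted p = 0.077 and 0.15), nor with no filter, quantile normalization or only the compared groups (adjusted p = 0.076, 0.058 and 0.061).

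Compared directly at the same time, most tested chemokine genes were lower with Dex than with CpdA. This contrast uses no vehicle values for its difference, although the vehicle samples enter the shared spread. At 2 h, 4 of the 7 tested genes were lower with Dex, against 6.18% of all genes, and 0 were higher (7.53% of all; also 0 of the 7 at an unadjusted p under 0.05, limma). At 4 h, 5 of 7 were lower, against 18.0%, and 0 were higher (15.4% of all; 1 of the 7 at an unadjusted p, limma). Counted here, CCL2 at both times and CXCL3 at 2 h were under 0.5 RPKM with Dex and passed the filter through other groups. CXCL8 differed by −2.99 ± 0.30 at 2 h (limma, adjusted p = 0.00015) and −2.36 ± 0.30 at 4 h (adjusted p = 0.00032), which are 7.96-fold and 5.14-fold. CCL2 differed by −1.62 ± 0.30 and −2.51 ± 0.30 (limma, adjusted p = 0.0058 and 0.00019), and CXCL2 by −1.37 ± 0.10 and −0.96 ± 0.10 (adjusted p = 2.3e-05 and 0.00011). CXCL3 passed at 2 h only (−0.91 ± 0.20, limma, adjusted p = 0.017), and CXCL16 (−0.52 ± 0.11, adjusted p = 0.0071) and CX3CL1 (−0.49 ± 0.14, adjusted p = 0.025) at 4 h only. Some of these calls rested on single samples. CXCL3 at 2 h missed the threshold without Dex 2 h replicate 1 or either CpdA 2 h sample (limma, adjusted p from 0.063 to 0.13), and CCL2 at 2 h without Dex 2 h replicate 2 or CpdA 2 h replicate 2 (adjusted p = 0.052 and 0.057). CXCL16 at 4 h missed it without CpdA 4 h replicate 2 or with only the compared groups (limma, adjusted p = 0.053 and 0.051), and CX3CL1 at 4 h without Dex 4 h replicate 2, without either CpdA 4 h sample or with no filter (adjusted p from 0.060 to 0.14). CCL20, under the filter, had 18 reads with Dex and 6 with CpdA at 2 h, a ratio of 2.96 (exact 95% interval 1.13 to 9.11, counting error only), and was not called in the fit without a filter (0.79, limma, adjusted p = 0.069). Its reads at 4 h, 20 with Dex and 1 with CpdA, gave a ratio of 21.5 (exact 95% interval 3.44 to 893, counting error only).

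CXCL1 was the 1 tested gene with higher values in every Dex than in every CpdA sample at both times. At 4 h the difference was 0.98 ± 0.34 on the log2 scale and lay at the threshold (limma, adjusted p = 0.055). The vehicle spread enters its SE. Without vehicle replicate 1 or 2 the same difference of 0.98 had an adjusted p of 0.00035 or 0.00030 (limma). It also passed with a pseudocount of 0.01, with quantile normalization, with only the compared groups and with the replicate block. At 2 h the difference of 0.43 ± 0.34 had an adjusted p of 0.55 (limma), and 0.041 or 0.037 without vehicle replicate 1 or 2. The 95% interval of CX3CL1 at 2 h, from −0.46 to 0.17, and that of CXCL16 at 2 h, from −0.50 to 0.02, leave room for a difference between Dex and CpdA of up to about 0.5.

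Between 2 h and 4 h of Dex, CCL2 fell further by 1.33 ± 0.30 on the log2 scale (limma, adjusted p = 0.020) and CX3CL1 by 0.90 ± 0.14 (adjusted p = 0.0036), so 2 of 7 tested genes were lower at 4 h, against 9.02% of all genes. Of all genes called here 33.5% were higher, 47.7% after quantile normalization and 53.3% after median scaling. None of the 7 was higher (4.55% of all genes; 2 of the 7, CXCL2 and CXCL3, at an unadjusted p under 0.05, limma). CXCL3, at 0.69 ± 0.20, lay just past the threshold on the side not called (limma, adjusted p = 0.057) and passed after quantile normalization, median scaling, without the abundance trend or without Dex 2 h replicate 2 (0.95, adjusted p = 0.041). The CCL2 step rests on 22 against 3 reads, and with a pseudocount of 1 it was −0.26 (limma, adjusted p = 0.33). It also missed the threshold without Dex 2 h replicate 1 (−1.11, limma, adjusted p = 0.14), with no filter (adjusted p = 0.061) and with only the compared groups (adjusted p = 0.090). The vehicle sample marked 4 h by the data's names was also below that marked 2 h for both genes (CCL2 1.39 against 2.72, CX3CL1 3.03 against 4.13 RPKM), so the time under Dex and time in culture cannot be told apart. CXCL8 did not move between the times beyond its error (−0.11 ± 0.30, limma, adjusted p = 0.84).

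Between 2 h and 4 h of CpdA, CX3CL1 fell by 0.57 ± 0.14 on the log2 scale (limma, adjusted p = 0.031). The vehicle sample marked 4 h was below that marked 2 h for this gene, as given for Dex. The call was lost without any one of the 4 CpdA samples (adjusted p from 0.11 to 0.19), with no filter (0.089) and without the abundance trend (0.051). It was the 1 of 7 tested genes called, against 7.20% lower and 5.21% higher among all genes, and 0 of the 7 were higher (also 0 at an unadjusted p under 0.05, limma). Of all called genes 42.0% were higher, and 54.6% after median scaling. CXCL8 was lower in both 4 h samples than in both 2 h samples (−0.74 ± 0.30, limma, adjusted p = 0.15), and this difference passed when either vehicle sample was left out of the shared spread (adjusted p = 0.0017 in both fits). CXCL1 behaved in the same way (−0.54 ± 0.34, limma, adjusted p = 0.34, and 0.017 or 0.015 without vehicle replicate 1 or 2). For CXCL8 and CXCL1 the vehicle sample marked 4 h was also below that marked 2 h (18.7 against 44.2 and 1.92 against 5.14 RPKM). Time under CpdA and time in culture thus cannot be told apart for these genes. Whether the difference between Dex and CpdA itself changed from 2 h to 4 h was also tested, and 0 of the 7 genes passed in either direction (limma, against 3.04% and 3.56% of all genes), with CXCL2 past an unadjusted p of 0.05. CXCL8, whose difference was 0.63 smaller at 4 h (adjusted p = 0.46), passed without vehicle replicate 1, without vehicle replicate 2 and with only the compared groups (adjusted p = 0.019 in each).

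For each gene called with a change of over 2-fold against vehicle, the transcripts with the most similar pattern over the 10 samples were listed by Pearson r of log2(RPKM + 0.1), as a description. The samples share treatments and the vehicle split, so such values run high. CXCL8 was closest to IER3 (r = 0.995), HBEGF (0.990) and CLCF1 (0.989). For CCL2 they were ZSWIM4 (0.986), VASN (0.985) and TGIF2 (0.984), and for CX3CL1 they were PNMA2 (0.987), CNIH3 (0.985) and GLRB (0.982). CXCL3 had DPF1 (0.964), ZNF211 (0.953) and CRABP2 (0.927), and CXCL1 had less similar partners in RARA (0.913), LCMT2 (0.899) and CENPC (0.891). Among the chemokines themselves, CXCL8 and CXCL2 had r = 0.925 and CXCL8 and CCL2 r = 0.876, while CXCL1 stood apart from CXCL8 (r = −0.09), from CXCL2 (−0.38) and from CXCL3 (−0.09), although CXCL1, CXCL2 and CXCL3 are close copies.

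CXCR2, the receptor shared by the neutrophil attractants, was not analysed here. The receptors of other members were at or near 0. Of 20 chemokine receptor genes in the files, 17 were under 0.5 RPKM in every sample. CXCR1, a receptor of CXCL8, did not exceed 0.0138 RPKM, CCR2, the receptor of CCL2, 0.0436 RPKM, CX3CR1, that of CX3CL1, 0.0045 RPKM, CCR6, that of CCL20, 0.025 RPKM, and CXCR6, that of CXCL16, 0.13 RPKM. The 3 receptors that passed the filter bind other ligands or do not signal in the classical way. CXCR4, the receptor of CXCL12, had 6.15 and 5.56 RPKM with vehicle, 3.56 and 3.09 RPKM at Dex 4 h and 1.44 and 1.55 RPKM at CpdA 4 h. It fell with both, with log2 fold changes at 2 h and 4 h of −0.36 and −0.80 with Dex and −1.02 and −1.90 with CpdA (limma, adjusted p from 0.032 to 4.1e-06).

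CCRL2, an atypical receptor that presents chemerin, was lower, with log2 fold changes of −0.57 at Dex 2 h, −1.74 at Dex 4 h and −1.03 at CpdA 4 h (limma, adjusted p = 0.0033, 1.2e-06 and 0.00013), from 19.8 and 16.1 RPKM with vehicle. ACKR3, an atypical receptor that takes up CXCL12, rose by 0.64 at Dex 4 h and 0.70 at CpdA 4 h (limma, adjusted p = 0.0070 and 0.0067). At 2 h, 2 of the 3 receptors fell with Dex and 1 with CpdA, and at 4 h 2 fell and 1 rose with each ligand. Over all genes 5.82% and 4.29% fell with Dex and CpdA at 2 h and 18.2% and 13.8% at 4 h, where 9.26% and 6.76% rose, and 3 genes are too few to set against these shares.

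The NF-κB list of 15 subunits and inhibitors was measured in full. With Dex 2 of 15 rose and 6 fell at 2 h, and 3 rose and 8 fell at 4 h. With CpdA 0 rose and 6 fell at 2 h, and 1 rose and 6 fell at 4 h. Over all genes, Dex had 4.49% higher and 5.82% lower at the earlier time, then 9.26% higher and 18.2% lower. The shares for CpdA were 1.89% higher and 4.29% lower, then 6.76% higher and 13.8% lower. The medians were −0.18 and −0.25 with Dex and −0.17 and −0.16 with CpdA, all below the all-gene medians given above. NFKBIA, which holds NF-κB in the cytoplasm, had 47.9 and 37.8 RPKM with vehicle, 132 and 126 RPKM at Dex 2 h and 25.7 and 24.5 RPKM at CpdA 2 h. It rose with Dex by 1.60 and 1.67 at 2 h and 4 h (limma, adjusted p = 6.6e-06 and 2.4e-06) and fell with CpdA at 2 h by 0.76 (adjusted p = 0.0025). TNFAIP3 (A20), a feedback inhibitor of NF-κB signalling, changed by 1.44 and 1.20 with Dex and by −0.81 and −1.02 with CpdA (limma, adjusted p from 0.031 to 0.00069). The other genes that rose moved little: TNIP1 at Dex 4 h (0.20) and NFKBIB at CpdA 4 h (0.22).

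NFKBIE, a further inhibitor, fell with both, with log2 fold changes of −0.98 and −1.35 with Dex and −0.62 and −0.65 with CpdA (limma, adjusted p from 0.0013 to 1.0e-06). BCL3, a nuclear cofactor of NF-κB, had 18.7 and 9.30 RPKM in vehicle replicates 1 and 2, a split like that of CXCL8, and 3.77 and 4.35 RPKM at Dex 2 h. With Dex its log2 fold changes were −1.68 and −1.77 (limma, adjusted p = 0.0022 and 0.00073). These values stand beside those of the chemokines, and their part in the chemokine changes was not tested.

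Of 8 genes for proteins that bind AU-rich elements, which occur in many chemokine messenger RNAs, 3 rose and 0 fell with Dex at each time. With CpdA 2 rose and 1 fell at 2 h, and 1 rose and 1 fell at 4 h. Over all genes, 4.49% rose and 5.82% fell with Dex at 2 h, and 9.26% and 18.2% at 4 h. With CpdA the shares were 1.89% and 4.29% at 2 h and 6.76% and 13.8% at 4 h. The list's counts at CpdA 4 h are near these last shares. ZFP36 (tristetraprolin), which promotes decay of such RNAs, had 6.19 and 8.48 RPKM with vehicle and 49.5 and 52.7 RPKM at Dex 2 h, a rise of 2.80 on the log2 scale at both times (limma, adjusted p = 8.7e-07 and 4.2e-07). It also rose with CpdA, by 0.95 at 2 h and 0.70 at 4 h (limma, adjusted p = 0.0028 and 0.0045). ZFP36L2, of the same family, changed by 2.00 and 2.17 with Dex and by −0.45 and −0.38 with CpdA (limma, adjusted p = 2.0e-07 and 7.1e-08 with Dex, 0.0076 and 0.0065 with CpdA). ZFP36L1, the remaining gene that rose, changed by 0.27 and 0.22 with Dex and by 0.19 at CpdA 2 h. Their part in the chemokine changes was not tested.

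**Figure D5:**
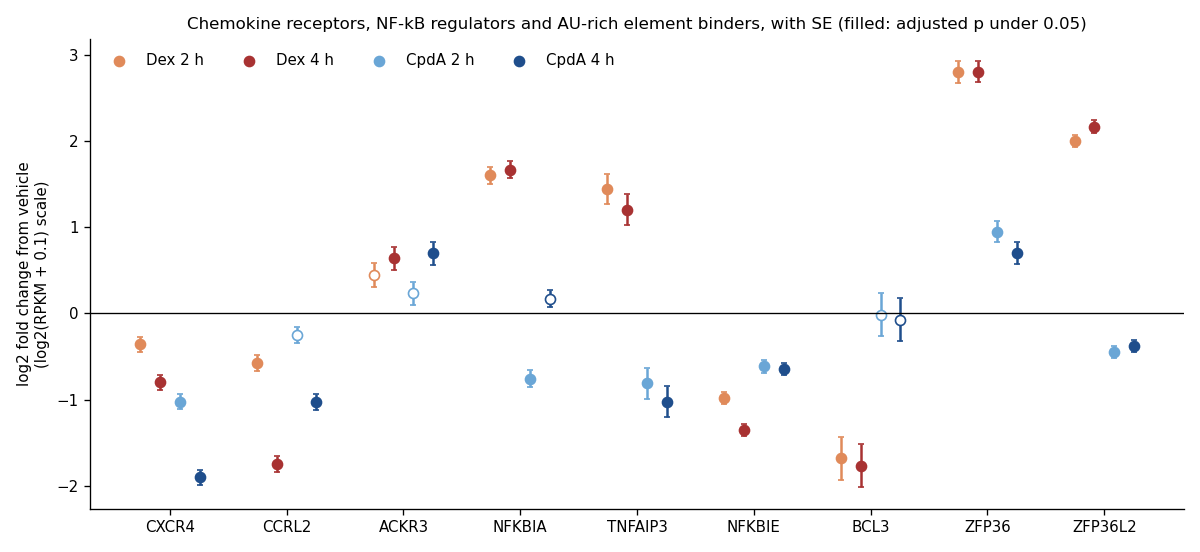
Log2 fold change from vehicle (vertical axis, log2(RPKM + 0.1) scale, bars show the SE from limma, filled points have an adjusted p under 0.05) of 3 chemokine receptor genes, 4 NF-κB regulators and 2 AU-rich element binders. CXCR4 fell with both ligands, most with CpdA at 4 h (−1.9), while NFKBIA, TNFAIP3 and ZFP36L2 rose with Dex and were lower or little changed with CpdA.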

How the data were processed

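MDA-MB-231 cells were profiled by RNA-seq in 10 samples (5 groups of 2). According to the methods and the submitters' processing notes, the authors aligned reads with TopHat2 2.0.13, which runs Bowtie, and estimated abundances in Partek 6.6. The notes name hg19 without tying it to one assay. The values deposited by the authors are RPKM, 1 value per gene symbol and sample. Other assays of the series were not analysed here.

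Values were fitted as log2(RPKM + 0.1) with limma 3.58.1 (R 4.3.3; lmFit, contrasts.fit, eBayes with an abundance trend) over all 5 groups, with Benjamini-Hochberg adjustment over the 12713 genes at or above 0.5 RPKM in at least 2 samples and a threshold of 0.05, two-sided. A fold change on this scale understates the change of low genes. Whole reads were recovered where every value of a gene was within 0.02 of a multiple of its 1-read step. Exact read-ratio intervals cover counting error only, and reads without molecular identifiers are not independent molecules. The script was tested on simulated data. Alternatives were other pseudocounts (1 and 0.01), filters, scalings, variance models and sample sets, a replicate block and 10 fits that leave out 1 sample each. Named list genes were those called at over 2-fold against vehicle, at most 5 per list, and ACKR3, the silent receptors, small movers of a list, further ligands, sheddases and markers were added with their values in view. The chemokine members and all gene lists were chosen with earlier results of these data known. Sequences came from RefSeq (GRCh38.p14) and loci from GENCODE (GRCh37), matched by symbol.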

Additional observations from a re-analysis of the deposited data

Results flagged for a closer look

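Values that differed between the 2 h and 4 h samples of 1 ligand in the limma test of that difference were looked at again. CCL2 was lower at 4 h than at 2 h of Dex (−1.332 on the log2 scale), on 3 against 22 reads. CX3CL1 was lower at 4 h than at 2 h of Dex (−0.9046), with 1.81 and 1.58 against 3.46 and 3.06 RPKM. CX3CL1 was also lower at 4 h than at 2 h of CpdA (−0.5656), with 2.54 and 2.29 against 3.72 and 3.51 RPKM. The labels give the vehicle samples no time. The names of the deposited data mark vehicle replicate 1 as 2 h and replicate 2 as 4 h, and on that marking vehicle was lower at 4 h too, at 1.39 against 2.72 RPKM for CCL2 and 3.03 against 4.13 RPKM for CX3CL1. A change of these genes with time in culture alone cannot be told apart from the 2 treatments.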

How the results depend on the processing

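Of the comparisons of single members under an alternative, 1078 kept direction and side of the threshold, 45 lost the call, 30 gained it and 17 turned sign. With genes required at 1 RPKM in every sample, which removes CCL2, CXCL3 and CXCL1 from the test, the members lower were 3 in place of 5 at Dex 2 h, 1 in place of 3 at CpdA 4 h, 2 in place of 4 for Dex against CpdA at 2 h, and 1 in place of 2 for Dex 4 h against 2 h. With only the compared groups in the fit, 0 in place of 1 rose at CpdA 2 h, 1 in place of 0 was higher with Dex than CpdA at 2 h and at 4 h and in the change of the ligand difference, 1 in place of 2 was lower at Dex 4 h against 2 h, and 3 in place of 1 at CpdA 4 h against 2 h. The cause was not tested. One member in place of 0 was higher with Dex than CpdA at 4 h with a pseudocount of 0.01 or quantile normalization, and 1 in place of 0 at Dex 4 h against 2 h with quantile normalization, median scaling or no abundance trend. A pseudocount of 1 or no filter left 1 in place of 2 lower at Dex 4 h against 2 h, and no filter or no abundance trend left 0 in place of 1 lower at CpdA 4 h against 2 h. CXCL3 at CpdA 4 h turned from −0.01 to 0.061 with quantile normalization and 0.060 with median scaling. Over all genes, the fit of only the compared groups called 1775 in place of 3487 at Dex 4 h, 480 in place of 786 at CpdA 2 h, 696 in place of 1725 for Dex 4 h against 2 h and 3500 in place of 1577 for CpdA 4 h against 2 h.

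The replicate numbers were not treated as pairs: deviations of same-numbered samples correlated with a mean r of 0.05 over 10 pairs of groups (−0.06 to 0.20). A replicate block took the members higher with Dex than CpdA at 4 h from 0 to 1 (CXCL1, limma, adjusted p = 0.039) and changed no other count beyond 1.5 times.

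Over the fits leaving out 1 sample, all genes called against vehicle ranged from 766 to 1705 (Dex 2 h), 2767 to 4754 (Dex 4 h), 216 to 1450 (CpdA 2 h) and 1188 to 3638 (CpdA 4 h). The members lower ranged from 3 to 5 (Dex 2 h), 0 to 2 (CpdA 2 h), 0 to 4 (CpdA 4 h), 2 to 4 (Dex against CpdA, 2 h), 3 to 5 (the same, 4 h), 1 to 2 (Dex 4 h against 2 h) and 0 to 3 (CpdA 4 h against 2 h). Members higher ranged from 0 to 2 at CpdA 2 h and 4 h, and from 0 to 1 for Dex against CpdA at 2 h and 4 h, for Dex 4 h against 2 h and for the change of the ligand difference. Signs turned in some of these fits. Ranges against vehicle were −0.33 to 0.10 for CX3CL1 and −1.32 to 0.055 for CXCL1 at Dex 2 h, −1.31 to 0.062 for CXCL1 at Dex 4 h, −0.19 to 0.25 for CX3CL1 (−0.0091 without CpdA 2 h replicate 1), −0.22 to 0.016 for CXCL3 and −0.053 to 1.18 for CXCL8 at CpdA 2 h, and −0.12 to 0.11 for CXCL3 and −0.80 to 0.44 for CXCL8 at CpdA 4 h. Between times they were −0.095 to 0.11 for CXCL1 (−0.0011 without Dex 2 h replicate 1), −0.26 to 0.10 for CXCL16 and −0.24 to 0.017 for CXCL8 with Dex, and −0.022 to 0.22 for CXCL3 with CpdA. Each group has 2 samples, the vehicle pair is split for CXCL8, CXCL1 and CCL2, and CCL2 after Dex, CCL20, CCL5 and CXCL5 rest on few reads.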

Other observations

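Most chemokine ligands outside the 10 that had a value were nearly silent in these cells. Of 38 further ligand symbols looked up, 18 had a value, and the level of the others is not known. Of the 18, 15 stayed under 0.5 RPKM in every sample and 2 passed the filter. The remaining gene, PF4, passed 0.5 RPKM in Dex 4 h replicate 1 alone and was not tested. It had 0.0228 and 0.0675 RPKM with vehicle, 0.140 and 0.320 RPKM at Dex 2 h, and 0.560 and 0.125 RPKM at Dex 4 h. With CpdA it had at most 0.0980 RPKM, so every Dex sample was above every vehicle and CpdA sample, at low levels. CCL24, also not tested, went the other way with Dex. It had 0.325 and 0.374 RPKM with vehicle, 0.0477 and 0.224 RPKM at Dex 2 h, and 0.0512 and 0 RPKM at Dex 4 h. With CpdA it ran from 0.0469 to 0.373 RPKM. CCL28, a mucosal ligand of CCR10, had 1.73 and 1.24 RPKM with vehicle and 1.1 and 0.997 RPKM at Dex 4 h, where it fell by 0.45 on the log2 scale (limma, adjusted p = 0.043). CCL26 (eotaxin-3) had 1.70 and 1.88 RPKM with vehicle and was not called against vehicle in any group. The sheddases that can release CX3CL1 and CXCL16 from the cell surface were abundant, ADAM10 at 52 to 62 RPKM and ADAM17 at 17.9 to 22.0 RPKM, and neither was called against vehicle in any group (limma, adjusted p from 0.055 to 0.84). Of the 5 tested genes of that list, 2 fell with CpdA at 4 h, where 13.8% of all genes did: RHBDF1 (−0.37) and RHBDF2 (−0.20), which help ADAM17 mature (limma, adjusted p = 0.018 and 0.047).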
